A study of Rattus norvegicus with 30 samples.

Results

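Adrenals of ovariectomized rats given estradiol (OVX + E) were compared with adrenals of intact, sham-operated females (female control), to see which genes stood below or above the intact level after replacement. The 10 arrays titled as these groups, 5 of each, were taken out of 30 in the series, and all were used. Each array held whole adrenal RNA of a different Wistar rat, cortex and medulla together, aged 12 weeks when obtained. OVX + E rats lost both ovaries, received a slow-release estradiol depot of 0.5 mg per 100 g body weight 14 days later and were killed 4 weeks after surgery, whereas female controls had a sham operation and no hormone and were killed at the same time. Estradiol was given to the whole animal, so direct and indirect actions on the adrenal cannot be told apart. For reference, 5 ovariectomized rats without hormone (OVX) and, in the males, 5 orchiectomized rats given testosterone (ORX + T, 5 mg per 100 g) and 5 sham-operated males (male control) are set beside them. The remaining 5 arrays, of orchiectomized rats without hormone (ORX), entered the fit to all 30 arrays.

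The adrenal cortex makes corticosteroids from cholesterol under pituitary ACTH, and the medulla makes catecholamines. Estradiol acts on the pituitary and on the cortex, and ACTH acts on cortical cells through cyclic AMP, which is known to switch on immediate early genes within minutes. The gland also holds a circadian clock. In it, Dbp, an activator of genes with a D-box in their promoters, and Nfil3, a repressor at the same element, peak at opposite times of day.

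The labelled tissue showed in its markers. Cyp11a1, which cleaves the cholesterol side chain, averaged 11.7 on the log2 signal scale over the 10 arrays and Th, the first enzyme of catecholamine synthesis, 9.86, both above at least 98.7% of genes. Among the 10 arrays, 3 had a narrower distribution, with an SD of log2 signal of 1.425 to 1.496 against 1.67 to 1.75 in the other 7. These were OVX + E replicates 2 and 5 and control replicate 5. Counts of called genes and the gene lists are also given without them. The value table holds 36685 probe sets, of which 14824 carried a single gene symbol, and the brightest per gene left 14557 genes. In bulk RNA, fewer cells of a type and less RNA per cell cannot be told apart.

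With the 10 arrays alone, limma called 3 genes (0.0206% of 14557) under the authors' thresholds, an absolute fold over 2 with an adjusted p below 0.05, 1 higher (0.00687%) and 2 lower (0.0137%). Dbp rose, while Nfil3 and Scx fell. Dbp passed without any single array, but Nfil3 and Scx did not pass once OVX + E replicate 1, 2, 3 or 5 or control replicate 1, 2, 3 or 4 was left out (adjusted p up to 0.107). The same 3 passed without the fold limit, and 431 genes (2.96%) had an unadjusted p under 0.05, 345 lower (2.37%) and 86 higher (0.591%). When all 30 arrays shared a common estimate of the spread, 23 genes (0.158%) were called, 4 higher (0.0275%) and 19 lower (0.131%), and these include the 3. By adjusted p alone, the count used for gene lists below, 34 genes (0.234%) passed with 30 arrays, 7 higher (0.0481%) and 27 lower (0.185%). The 20 genes called only with 30 arrays had adjusted p values of 0.0557 to 0.325 with the 10 arrays. Below, "rose" and "fell" without further words mean the 10-array fit, and the 30-array fit is named where it made the call. Values of both groups did not overlap in 21 of the 23 genes, against 101 of all genes (0.694%), and the exact permutation p of those 21 was 0.00794, the smallest that 5 against 5 values can give. These genes were chosen on the same values, so that count is a description.

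**Figure D1:**
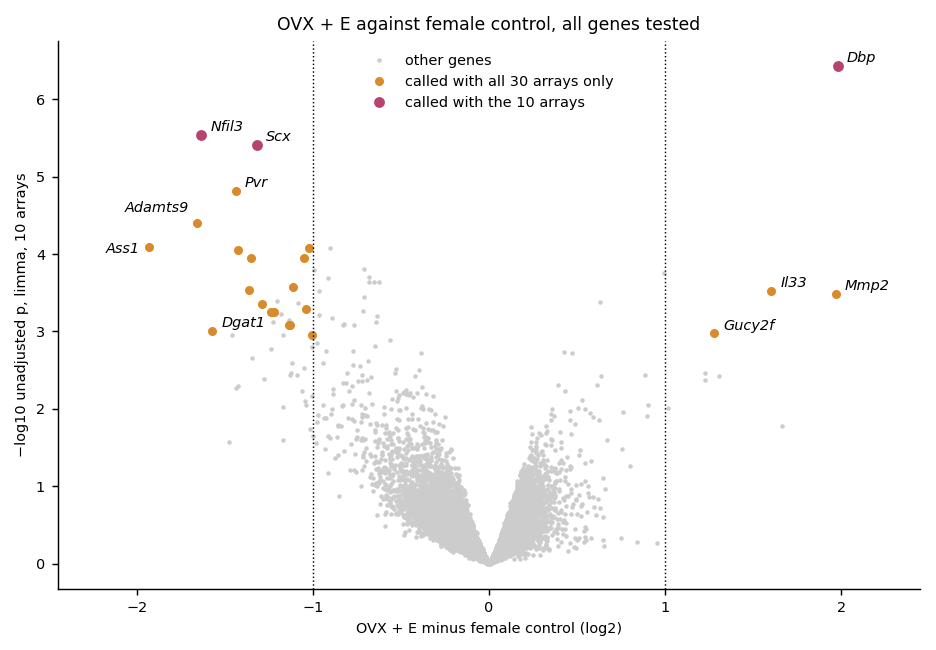
Log2 difference between OVX + E and female control (horizontal axis) and −log10 of the unadjusted limma p of the 10-array fit (vertical axis) for 14557 genes, with dotted lines at a fold of 2. The 3 genes called with the 10 arrays lie highest, and of the 20 called with 30 arrays only, 17 lie to the left and 3 to the right.

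Promoters of 19 of the 23 genes, 250 bases before to 50 after the start site, were matched in RefSeq (assembly GRCr8). Those of Dbp and Nfil3, which moved in opposite directions, and of Insig1, a sterol sensor, are shown from 5′ to 3′, with every match to the D-box, E-box and CRE core in capitals. The searched letters were TTANGTAA for the D-box, bound by Dbp and Nfil3, CACGTG for the E-box, bound by Clock and Bmal1, and TGACG for the core of the cyclic AMP response element, on both strands and with no overlap among the matches shown.
Dbp (chr1:105312006-105312305, + strand): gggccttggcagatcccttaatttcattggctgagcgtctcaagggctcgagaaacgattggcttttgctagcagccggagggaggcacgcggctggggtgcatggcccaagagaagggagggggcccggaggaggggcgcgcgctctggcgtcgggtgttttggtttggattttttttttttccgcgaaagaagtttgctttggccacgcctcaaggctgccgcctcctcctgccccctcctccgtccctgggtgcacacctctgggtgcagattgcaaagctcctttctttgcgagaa
Nfil3 (chr17:12432126-12432425, + strand): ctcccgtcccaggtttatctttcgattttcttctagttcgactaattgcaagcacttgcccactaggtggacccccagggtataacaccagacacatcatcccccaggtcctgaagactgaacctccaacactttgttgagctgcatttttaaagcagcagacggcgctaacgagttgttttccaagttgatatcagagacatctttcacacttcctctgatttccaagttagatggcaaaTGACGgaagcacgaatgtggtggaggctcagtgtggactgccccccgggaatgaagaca
Insig1 (chr4:8057720-8058019, − strand): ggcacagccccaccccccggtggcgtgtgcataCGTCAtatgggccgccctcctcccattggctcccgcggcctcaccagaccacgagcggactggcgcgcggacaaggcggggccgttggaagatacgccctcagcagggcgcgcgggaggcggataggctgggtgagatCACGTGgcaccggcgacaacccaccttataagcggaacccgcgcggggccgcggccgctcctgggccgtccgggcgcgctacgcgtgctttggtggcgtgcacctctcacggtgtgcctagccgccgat
Nfil3 held a CRE core at position -9 from the start site, Insig1 an E-box at -79 and a CRE core, read as CGTCA, at -217, and Dbp held none of the 3 motifs in this window. Across the 19 promoters, 8 had the CRE core, against 21.2% of all 33469 promoters of this length, 2 had a D-box (Pvr and Coq10b) against 2.24%, and 1 had an E-box against 6.42%. The whole CRE (TGACGTCA), the estrogen response element (GGTCA and TGACC with 3 bases of any kind between), the CArG box and the sterol element core (CACCCCAC) were found in 0 of the 19, against 1.83%, 0.0269%, 1.64% and 2.7% of all promoters. These are matches of letters only.

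Dbp stood highest above the intact level. Its log2 signal was 9.52, 9.04, 8.89, 9.77 and 9.36 in OVX + E rats and 7.55, 7.28, 7.46, 7.47 and 6.92 in female controls. The lowest OVX + E value lay more than 1 log2 unit above the highest control value. The rise was 3.95-fold (log2 difference 1.98 ± 0.18 SE, adjusted p = 0.00536). In OVX rats without hormone Dbp already was 8.61 to 9.36, and the fit to the 15 female arrays passed OVX against control (log2 difference 1.66, adjusted p = 0.00142) but not OVX + E against OVX (0.32, adjusted p = 0.737). The level above intact was thus present in both ovariectomized groups.

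Nfil3 moved the other way. It was 6.10, 5.69, 5.95, 6.54 and 5.88 in OVX + E rats and 7.38, 7.70, 7.88, 8.04 and 7.32 in female controls. No value of either group reached the other. It fell 3.11-fold (SE 0.19 on the log2 scale, adjusted p = 0.0189). OVX rats averaged 7.85 ± 0.30 (SD, n = 5), close to the intact mean of 7.67 ± 0.31, and OVX + E differed from OVX by -1.82 on the log2 scale (adjusted p = 9.4e-05, 15 arrays). Unlike Dbp, Nfil3 did not pass in OVX against control (log2 difference 0.19). Whether the 2 genes differed in this was not tested.

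The other measured clock genes gave a partial picture. Of 5 genes that peak opposite to Dbp, 1 fell (Nfil3) and 4 did not pass, although all 5 were below 0, with a median log2 difference of -0.71 beside -0.01 for all genes. Bmal1, the partner of Clock in the activating arm, averaged 7.21 ± 0.57 in OVX + E and 8.34 ± 0.51 in controls (SD, n = 5 each, adjusted p = 0.687). Cry1, a repressor of that pair, averaged 4.51 ± 0.15 in OVX + E and 5.22 ± 0.27 in controls (adjusted p = 0.211). For Cry1, 3 of 5 OVX + E values were dimmer than their array's median. With that median in their place its log2 difference is -0.65. In OVX rats without hormone, Bmal1 and Cry1 both lay nearer OVX + E than control, at 7.465 ± 0.53 and 4.715 ± 0.31. In the fit to the female arrays, neither passed in OVX + E against OVX (adjusted p = 0.942 and 0.849) or in OVX against control. Nfil3 was not low in OVX, and Clock averaged 8.47 in OVX, beside 8.22 in OVX + E and 8.65 in controls. Of 4 genes in phase with Dbp, Dbp alone passed. Per3 had a log2 difference of 0.41 and Per1, which cyclic AMP and glucocorticoids also induce, one of -0.94, and neither passed (adjusted p = 0.993 for both). All animals were handled within a single morning hour, so these values are a level at that hour and not a phase.

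Scx, a basic helix-loop-helix factor known from tendon progenitors, was the other gene that fell. OVX + E values were 6.73, 6.41, 6.66, 7.01 and 6.64, and control values were 7.84, 8.05, 8.04, 8.43 and 7.68. The groups were apart, and the difference was -1.32 ± 0.16 (SE, log2, adjusted p = 0.0189). OVX rats were higher than intact, at 8.64 to 8.98, and Scx was the only one of the 19 lower genes for which OVX against control passed (log2 difference 0.86, adjusted p = 0.0237, 15 arrays). Of 9 capsule and fibroblast markers none passed, and 8 were below 0 with a median of -0.17, where the mean per array ran from 5.33 to 5.87 in OVX + E and from 5.47 to 5.84 in controls. Postn and Mfap5 of that list lay under the array median in most arrays.

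**Figure D2:**
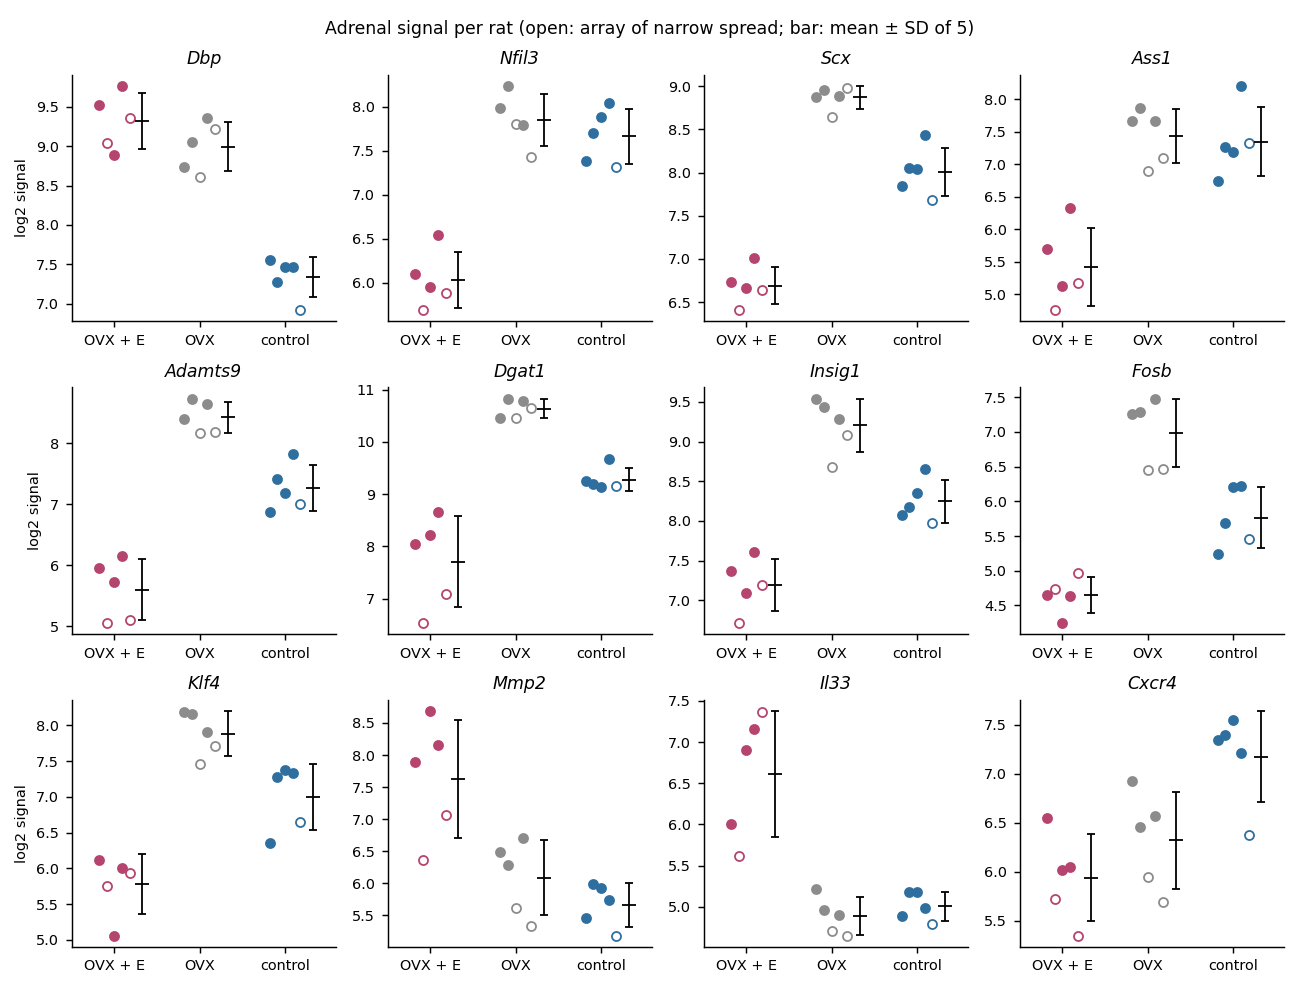
Log2 signal of each rat (points) for 12 of the called genes in OVX + E, OVX and female control, with the mean ± SD of 5 beside them and open points for arrays of narrow spread. Dbp is high in both OVX + E and OVX, Nfil3 is lower in OVX + E than in the other groups, and Adamts9, Dgat1, Insig1 and Fosb lie lowest in OVX + E and highest in OVX.

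The largest fall of the 30-array fit was in Ass1, argininosuccinate synthase, which joins citrulline and aspartate on the way to arginine. OVX + E rats had 5.70, 4.76, 5.13, 6.32 and 5.18 and controls 6.75, 7.26, 7.19, 8.21 and 7.33. It was 3.82-fold lower (log2 difference -1.93 ± 0.30 SE, adjusted p = 0.0016 with 30 arrays, 0.145 with 10). Of 17 measured genes of arginine, nitric oxide and polyamine metabolism, Ass1 alone passed in the 30-array fit, and the list median was -0.08.

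Among genes of the extracellular matrix, a protease fell and another rose in the 30-array fit. Adamts9, a secreted protease of versican and aggrecan, was 5.96, 5.06, 5.72, 6.16 and 5.11 in OVX + E and 6.88, 7.42, 7.18, 7.83 and 7.00 in controls (3.16-fold lower, adjusted p = 0.0036 with 30 arrays, 0.115 with 10). Mmp2, gelatinase A, was 7.89, 6.36, 8.68, 8.16 and 7.06 in OVX + E and 5.45, 5.98, 5.93, 5.74 and 5.18 in controls (3.92-fold higher, adjusted p = 0.00664 with 30 arrays, 0.198 with 10). The 2 narrow OVX + E arrays were the lowest for both genes, so they widened the fall of Adamts9 and narrowed the rise of Mmp2. The other 16 measured proteases and inhibitors did not pass.

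Lipid genes came next. Dgat1, which completes triglyceride synthesis, was 8.05, 6.54, 8.21, 8.66 and 7.08 in OVX + E and 9.25, 9.19, 9.14, 9.67 and 9.15 in controls. All OVX + E values were below the controls, but they spread more widely (SD 0.87 in OVX + E and 0.22 in controls). Its adjusted p was 0.0266 with 30 arrays and 0.309 with 10, and without the narrow arrays the 30-array call was lost. Insig1, which holds the SREBP activators of sterol synthesis in the endoplasmic reticulum, was 7.37, 6.72, 7.09, 7.61 and 7.19 in OVX + E and 8.08, 8.18, 8.35, 8.66 and 7.97 in controls (2.07-fold lower, adjusted p = 0.00926 with 30 arrays, 0.151 with 10). Of 15 fatty acid and triglyceride genes Dgat1 alone passed, and of 20 genes of sterol sensing, uptake, storage and export Insig1 alone, both with 30 arrays. None of 13 cholesterol synthesis genes passed in either fit. Idi1, an isomerase of that pathway, had 5.74 ± 0.89 in OVX + E and 7.16 ± 0.55 in controls (SD, n = 5 each, adjusted p = 0.809).

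Immediate early genes and their feedback regulators were mostly on the low side. Of 38 measured, 5 fell in the 30-array fit (Nfil3, Gem, Fosb, Klf4 and Midn), none rose and 33 did not pass. In all, 32 of 38 were below 0, with a median of -0.50 beside -0.01 for all genes, and 10 of 38 did not overlap between groups (against 0.694% of all genes). Fosb, a subunit of AP-1, was 4.65, 4.74, 4.25, 4.64 and 4.97 in OVX + E and 5.24, 5.69, 6.21, 6.22 and 5.46 in controls (adjusted p = 0.0343 with 30 arrays, 0.19 with 10). Gem, a small GTP-binding protein that inhibits calcium channels, averaged 7.53 ± 0.52 in OVX + E and 8.88 ± 0.23 in controls (SD, n = 5 each, adjusted p = 0.0137 with 30 arrays). Klf4, a zinc-finger factor, was 6.12, 5.76, 5.06, 6.00 and 5.94 in OVX + E and 6.35, 7.28, 7.37, 7.34 and 6.65 in controls, with little room between the highest OVX + E and the lowest control value (adjusted p = 0.0418 with 30 arrays). Midn, which carries nuclear proteins to the proteasome, was 2.01-fold lower, just past the fold limit (adjusted p = 0.0273 with 30 arrays). Nr4a2, an orphan receptor, and Fos itself had differences of -1.23 and -1.44 and did not pass in either fit, and both were picked after their values were seen.

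Genes of the integrated stress response lay low as well. Of 16 measured, 15 were below 0, with a median of -0.58, and Atf4, its central activator, alone passed in the 30-array fit, by adjusted p and under 2-fold. Atf4 was 8.98, 8.58, 8.87, 8.81 and 8.47 in OVX + E and 9.51, 9.53, 9.56, 9.27 and 9.23 in controls (log2 difference -0.68, adjusted p = 0.00984 with 30 arrays, 0.178 with 10). Gdf15, a stress-induced cytokine, had the lowest value of the list at -1.46 without passing (adjusted p = 0.325). Creb3l1, a membrane-bound factor of the secretory pathway, averaged 7.15 ± 0.51 in OVX + E and 8.28 ± 0.35 in controls (SD, n = 5 each, adjusted p = 0.0266 with 30 arrays), and its groups overlapped through OVX + E replicate 3 at 7.96. The other 13 secretory stress genes did not pass.

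The remaining genes that fell in the 30-array fit had varied roles. Pvr, an adhesion protein of the nectin family, was the closest to passing with the 10 arrays (5.71, 5.15, 5.31, 5.81 and 5.20 in OVX + E, and 6.82, 6.98, 6.96, 7.30 and 6.31 in controls, adjusted p = 0.0557). Fam222a was 2.69-fold lower, Sema6a, a membrane semaphorin, 2.57-fold, Carnmt1, which methylates carnosine, 2.44-fold, and Ndufa5, a subunit of respiratory complex I, 2.19-fold. Coq10b, a coenzyme Q binding protein, was 2.06-fold lower and the only one of 10 ubiquinone genes to pass, and Eola2 was 2.03-fold lower. Cxcr4, the receptor of the chemokine Cxcl12, was 6.55, 5.72, 6.02, 6.05 and 5.35 in OVX + E and 7.34, 7.39, 7.55, 7.21 and 6.38 in controls, and its groups overlapped through control replicate 5. Ackr3, the other receptor of Cxcl12, fell too in the 30-array fit, by 0.68 on the log2 scale, under the fold limit. So did Ninl (0.93), Btg1 (0.76), Lrrc58 (0.71), Efemp1 (0.64), Fam53c (0.63) and Calml4 (0.39). For Calml4, 3 of 5 OVX + E values were dimmer than their array's median. With that median in their place its log2 difference is -0.28.

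Above the intact level, Il33 and Gucy2f joined Dbp and Mmp2 in the 30-array fit. Il33, an alarmin of the interleukin-1 family, was 6.00, 5.62, 6.90, 7.16 and 7.37 in OVX + E and 4.89, 5.18, 5.18, 4.99 and 4.79 in controls (3.04-fold higher, adjusted p = 0.00013 with 30 arrays, 0.19 with 10). The controls lay close together, whereas the OVX + E rats, all above them, spread widely (SD 0.76 in OVX + E and 0.17 in controls). The other 19 alarmin and NF-kappaB genes did not pass, and their list median was 0.02. Gucy2f, a guanylate cyclase known from photoreceptors, averaged 5.60 ± 0.70 in OVX + E and 4.32 ± 0.19 in controls (SD, n = 5 each, adjusted p = 0.00811 with 30 arrays), but 4 of 5 control values were dimmer than their array's median, so the log2 rise is at least 1.14 with that median in their place. A further 3 genes rose in the 30-array fit below the fold limit (Nrep, Mturn and Cgnl1, by 0.99, 0.89 and 0.63 on the log2 scale).

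The OVX group gives the level after surgery without hormone. In 18 of the 19 lower genes the OVX mean was above the control mean, by a median of 0.53 over the 19, and the median difference of OVX + E from OVX was -1.94. OVX + E against OVX passed in 18 of 19 (15 arrays, against 0.996% of all genes lower), whereas OVX against control passed only for Scx (higher in 0.0893% of all genes). Dgat1 spanned most, with 7.71 ± 0.87 in OVX + E, 10.64 ± 0.18 in OVX and 9.28 ± 0.22 in controls (SD, n = 5 each). Cxcr4 was the exception, at 5.94 ± 0.45 in OVX + E, 6.32 ± 0.49 in OVX and 7.17 ± 0.46 in controls, with OVX between and nearer OVX + E. Of the 4 higher genes, Il33 had its OVX mean below the control mean and OVX + E against OVX passed (0.151% of all genes higher, log2 difference 1.73, adjusted p = 0.00284), whereas Mmp2 and Gucy2f lay between and did not pass (adjusted p = 0.0734 and 0.255). These comparisons share the OVX + E and the control rats with the one that chose the genes, so they are a description.

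**Figure D3:**
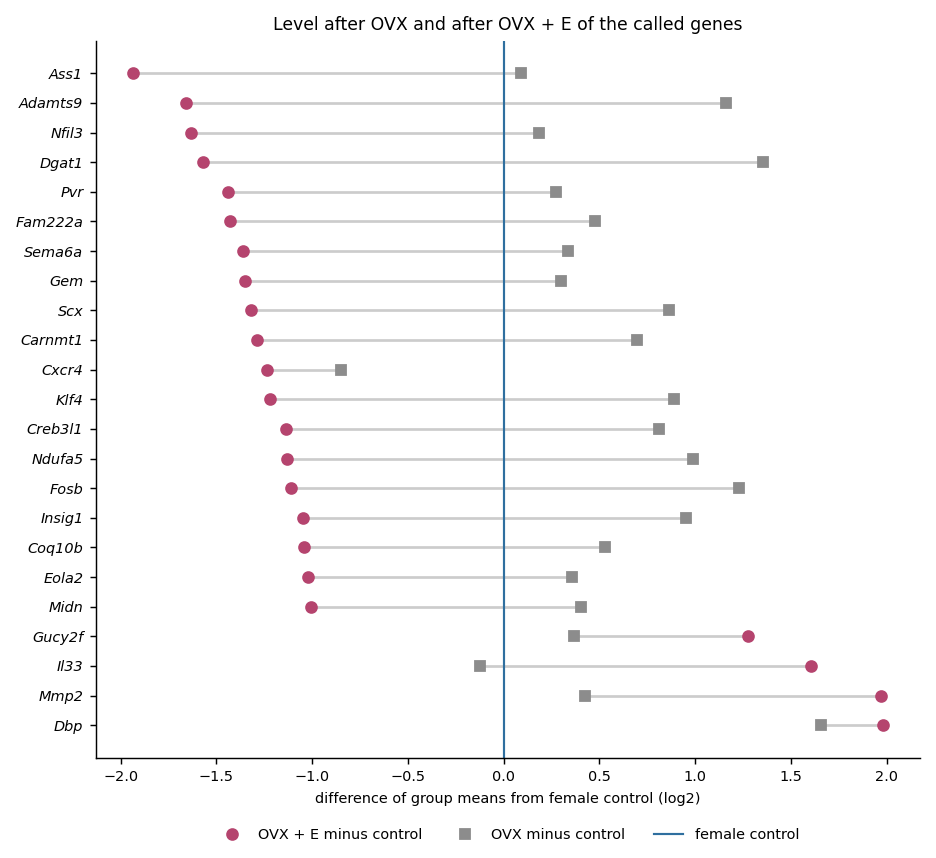
Difference from the female control mean (vertical line at 0) in log2 units for the 23 called genes, with circles for OVX + E and squares for OVX. Squares lie right of 0 and circles left of 0 for 18 of the 19 lower genes, with Cxcr4 as the exception, and both lie far right for Dbp.

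Testosterone replacement in males was set beside estradiol replacement in females, each against its own intact group in the 30-array fit, where sex and hormone cannot be told apart. Of the 23 genes, 12 had a difference of the same sign in ORX + T, and 5 passed that way (beside 0.941% of all genes in either direction), Dbp (1.52), Nfil3 (-0.91), Scx (-1.40), Creb3l1 (-1.13) and Eola2 (-0.95, all log2). Dbp already averaged 10.01 ± 0.15 in ORX, beside 10.15 ± 0.11 in ORX + T and 8.63 ± 0.38 in male controls (SD, n = 5 each). Nfil3, Scx, Creb3l1 and Eola2 averaged 7.275, 8.383, 8.283 and 6.624 in ORX, each above its male control mean. Contrasts with ORX were not tested. Scx and Creb3l1 differed between both responses by 0.08 ± 0.33 and -0.01 ± 0.33 (SE, log2). The difference of the responses itself passed in 9 of the 23, against 69 of all genes (0.474%), 59 of them lower (0.405%) and 10 higher (0.0687%) in the female response. The 23 were chosen on the female response, which is a part of this difference, so the 9 are a description. Among the 23 it was largest for Ass1 (-3.53, adjusted p = 3e-05), which fell in OVX + E and rose in ORX + T. Male values of Ass1 were 10.34, 10.07, 9.94, 10.18 and 10.00 in ORX + T and 7.95, 8.95, 8.51, 8.54 and 8.58 in male controls, with means of 10.11 and 8.51, on the far side of the female OVX + E mean of 5.41 and control mean of 7.35. Klf4 (-2.17), Pvr (-1.83), Cxcr4 (-1.72), Gem (-1.61), Sema6a (-1.45) and Coq10b (-1.09) also had a lower, and Il33 (1.66) and Gucy2f (1.41) a higher, female response. Ass1, Klf4 and Il33 passed under all 26 alternatives run for this difference. The other 6 did not pass after median centring, nor under further alternatives, mostly those that left out a single array, so that Gucy2f was lost in 17, Sema6a in 16, Gem in 15, Cxcr4 in 12, Coq10b in 9 and Pvr in 4 of the 26. Il33 averaged 4.65 ± 0.16 in ORX + T and 4.71 ± 0.06 in male controls (SD, n = 5 each).

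**Figure D4:**
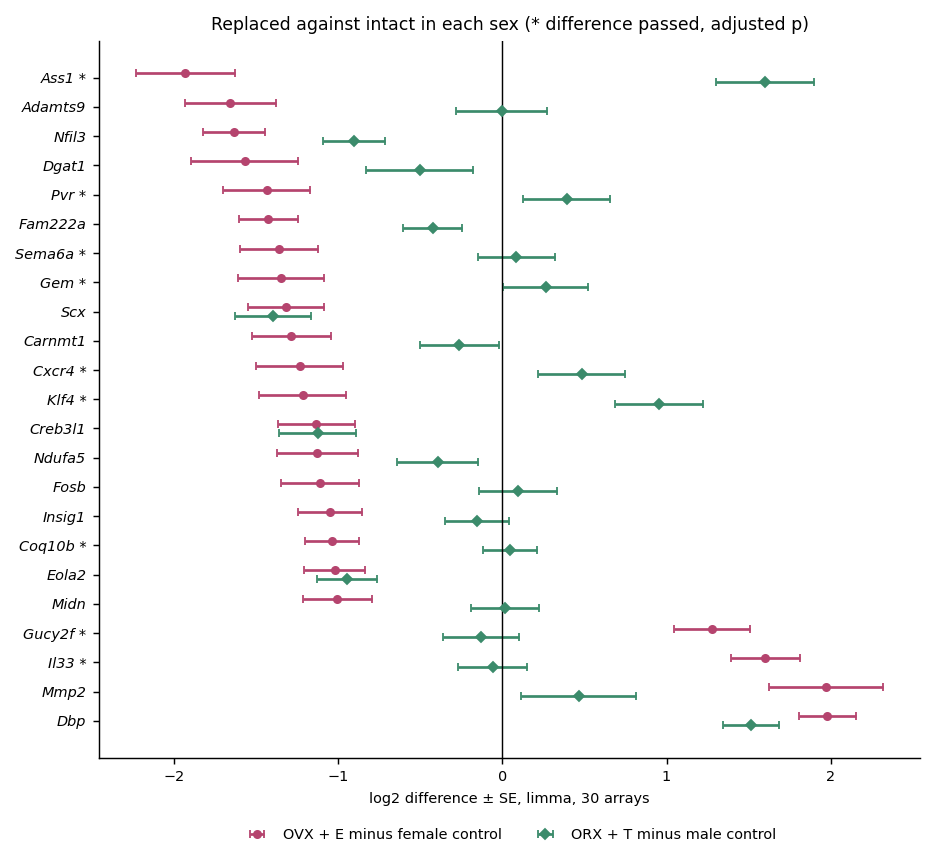
Log2 difference ± SE (30-array limma fit) of OVX + E from female control (circles) and of ORX + T from male control (diamonds) for the 23 called genes, with a star where the difference between both passed. The symbols meet for Scx, Creb3l1 and Eola2 and lie furthest apart for Ass1.

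No measured gene of corticosteroid synthesis passed in either fit, and only 11 of the 18 genes listed for it were measured. The 11 measured genes of corticosteroid synthesis had a median of -0.08, as had the 7 zona fasciculata markers, whose mean per array was 10.5 to 11.1 in OVX + E and 10.7 to 11.0 in controls. Cyp11b2, aldosterone synthase of the zona glomerulosa, was 9.77, 8.69, 6.01, 7.96 and 7.18 in OVX + E and 9.40 ± 0.41 (SD, n = 5) in controls, with 10.02 as the highest control value (adjusted p = 0.993). The groups overlapped, as OVX + E replicate 1 stood inside the control range while the other 4 lay below it. Of 7 zona glomerulosa markers 6 were below 0, with a median of -0.43. None passed among the lists of steroid receptors (4 measured), estrogen response genes of reproductive tissues (12), glucocorticoid response genes (13), ACTH and cyclic AMP signalling (17), Wnt genes (23), retinoid genes (14) or the cell cycle (15). Chromaffin markers were below 0 in 9 of 9 (median -0.34, mean per array 6.68 to 7.47 in OVX + E and 7.05 to 7.62 in controls), endothelial markers in 8 of 8 (median -0.40, 6.04 to 7.05 in OVX + E and 6.26 to 7.13 in controls) and macrophage markers in 9 of 10 (median -0.26, 5.70 to 6.31 in OVX + E and 5.96 to 6.34 in controls). None of these passed, nor did any of 8 lymphocyte, 9 fat cell and 4 red blood cell markers. The red blood cell mean per array was 3.92 to 4.19 in OVX + E and 4.20 to 4.68 in controls, mainly through Hbb-b1, a hemoglobin chain. Hbb-b1 averaged 4.61 ± 0.58 in OVX + E and 5.65 ± 0.58 in controls (SD, n = 5 each, adjusted p = 0.959). Its groups overlapped, and 3 of 5 OVX + E values were dimmer than their array's median. Slc4a1 of that list was under the median in 6 of 10 arrays. How often the mean of such a short list separates the groups was not tested. Many markers were dim. Oprk1, Slc18a2, Itgam, Cd3e, Cd3d, Cd3g, Ms4a1, Cidec, Lep, Ucp1, Hba-a1 and Ahsp lay under the median in all 10 arrays. Shh, Mfap5, Cd2, Cd8a, Plin1, Fabp4 and Retn did so in 8 or 9. For these genes a change in either direction could be missed. The part of these cell types in the lower genes was not tested.

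**Figure D5:**
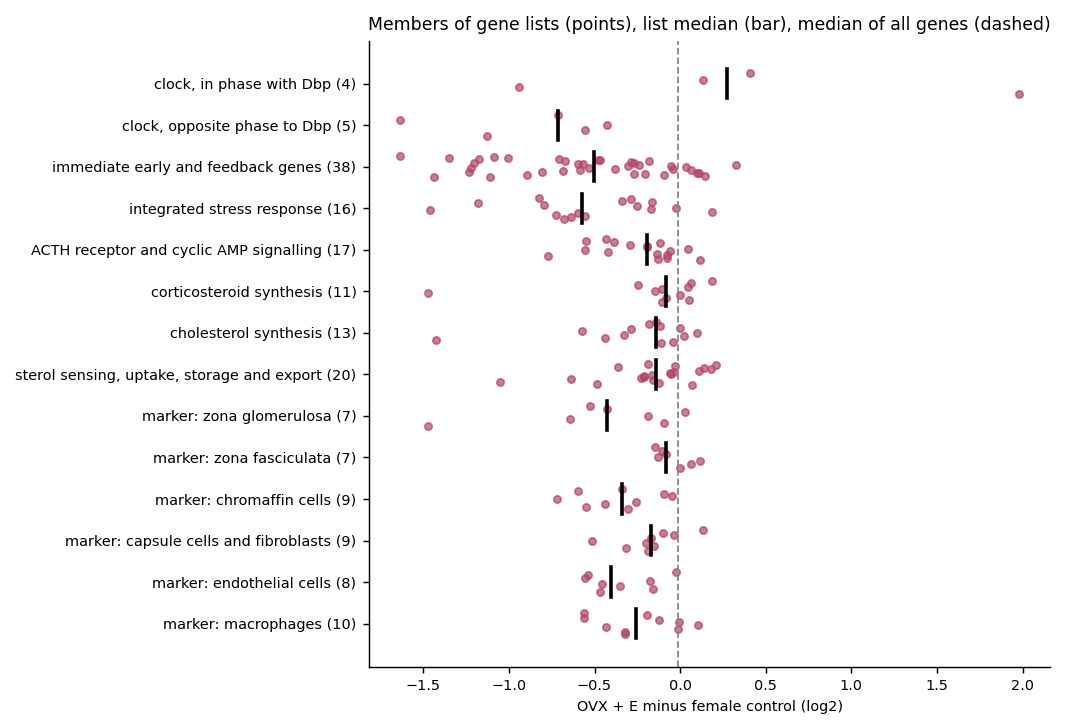
Log2 difference between OVX + E and female control (horizontal axis) of each measured member (points) of 14 gene lists, with the list median as a bar and the median of all genes as a dashed line. Clock genes opposite to Dbp, immediate early genes and stress response genes lie left of the dashed line for the most part, and corticosteroid synthesis lies about it apart from Cyp11b2.

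The narrow arrays moved with these falls. In 17 of the 19 lower genes the lowest OVX + E value came from a narrow array, and in 17 of 19 the highest control value came from control replicate 4. Without the narrow arrays, 17 genes were called in the 10-array design (13 lower and 4 higher) and 18 in the 30-array design, 13 of them among the 23. Without control replicate 4, 10 of the 23 kept their call with 30 arrays, 6 lower and 4 higher. The calls of Nfil3, Scx, Dbp, Ass1, Adamts9, Fam222a, Gucy2f, Il33 and Mmp2 held with 30 arrays under all 17 alternatives run. Of the other 14, 13 lost the call without control replicate 4. Without the narrow arrays it was lost by 10, Dgat1, Sema6a, Carnmt1, Klf4, Creb3l1, Ndufa5, Insig1, Coq10b, Eola2 and Midn, where Dgat1 and Klf4 no longer passed by adjusted p and the other 8 had a fold under 2. Of these 8, Creb3l1 did not pass by adjusted p either. In the 10-array design without the narrow arrays, Dgat1 was called.

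The gene lists were also taken without the narrow arrays, as an alternative added after the values were seen, which left 3 OVX + E and 4 control arrays. Clock genes opposite to Dbp then had a median of -0.79 with 5 of 5 below 0, immediate early genes -0.41 with 31 of 38 and stress response genes -0.53 with 15 of 16, beside 0.01 for all genes. By adjusted p in the 30-array design without the narrow arrays (113 genes, 0.776%), Bmal1 and Cry1 passed beside Nfil3, and the immediate early genes that passed were Atf3, Dusp5, Errfi1, Fosb, Gem, Midn and Nfil3. Among stress response genes Atf4 and Ppp1r15a, which lets protein synthesis resume, passed, among proteases Adamts1 beside Adamts9 and Mmp2, and among fat cell markers Cidea, a lipid droplet protein. Nr0b1 of the ACTH list, Errfi1 of the glucocorticoid list and the macrophage marker Aif1 passed as well. Of these genes Mmp2 and Cidea were higher in OVX + E and the others lower. With all 10 arrays, Cry1 and Nr0b1 were each under the array's median in 3 of 5 OVX + E arrays. Medians of several other lists lay higher than with all 10 arrays. That of corticosteroid synthesis became 0.02, of zona fasciculata markers 0.05, of fat cell markers 0.05, of sterol sensing genes 0.01 and of ubiquinone genes 0.09, so that their sign turned. Among the fat cell markers, Cidea averaged 9.04 over the 10 arrays and the others 3.98 to 4.67. Plin1, Fabp4, Cidec, Lep, Retn, Cfd and Ucp1 lay under the median in 7 to 10 of the 10 arrays. That list, with Cidea as its only bright member, cannot show a change of fat cells. The glucocorticoid response genes went further down, at -0.27 beside -0.14 with all 10. Zona glomerulosa and chromaffin markers came to -0.21 each, macrophage markers to -0.16, endothelial markers to -0.14 and capsule markers to -0.10. Each of these moves was smaller than the SD between rats of the list's median level, taken in the group with the wider spread. That SD included the narrow arrays themselves, so the comparison could hardly come out otherwise. It does not show that the moves were small.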

How the data were processed

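The authors hybridized 1 Affymetrix Rat Gene 2.1 ST array per rat and deposited log2 signals made with RMA (background correction, normalization and summarization) in the affy package, with annotation from the oligo package. The genome build and software versions are not given in the sources used here, nor which arrays were normalized together. No further scaling was applied. Probe sets with exactly 1 symbol were kept (829 had several and 21032 none). OVX + E and female control were compared with limma 3.58.1 in R 4.3.3 on the 10 arrays (8 residual degrees of freedom), with Benjamini-Hochberg adjustment over 14557 genes. A gene was called under the authors' thresholds (fold over 2, adjusted p below 0.05), and list members were counted by adjusted p alone. Alternatives included all 30 arrays (24 residual degrees of freedom). OVX contrasts came from the 15 female arrays, and exact two-sided permutation tests from 5 against 5 values. Named were all genes called in either fit or passing by adjusted p. Members of lists were drawn from the 3 of lowest p in each, not all of which are named, and the others were chosen after their values were seen. The groups, members and gene lists were chosen with earlier results of these data known. In simulated data, normal noise was drawn separately for each of 14557 genes and each array, with no narrow arrays. The 10-array fit recovered 86 of 100 genes changed by 1.5 log2 units and 100 of 100 changed by 3, with 2 false calls. The 30-array fit recovered 93 and 100, with 2. No shift was shared by the genes of an array, so these counts do not give the error rate in the real arrays. Arrays give no read depth, and their number limits the precision. Promoters and their coordinates are those of RefSeq on GRCr8, matched by Entrez number.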

Additional observations from a re-analysis of the deposited data

Results flagged for a closer look

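A single rat stood far from the other 4 of its group in 13 of 206 groups of 5 tested by Dixon's ratio, where chance alone gives about 1 in 20. In control replicate 5, a narrow array, the log2 signal was low for Cxcr4 (6.38), Ninl (5.60), Bmal1 (7.45), Slc18a1 (7.17), Vsnl1 (6.50), Dkk3 (5.82), Coq8b (6.00), Lum (4.15) and Pdss2 (5.63). In control replicate 4 it was high for Dgat1 (9.67), Idi1 (8.13) and Plin1 (4.84). In OVX + E replicate 2, also narrow, it was higher than in the other 4 for Esr2 (4.38). That value still lay under the array's median of 4.626, and Esr2 was under the median in all 10 arrays.

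The response to OVX + E minus the response to ORX + T passed in 14 of the 103 genes examined (30-array fit, adjusted p), against 69 of all 14557 (0.474%). The 103 were chosen by their values in OVX + E against control, a part of this difference, so the count is a description. It was negative for Ass1 (-3.53), Klf4 (-2.17), Per1 (-1.94), Pvr (-1.83), Cxcr4 (-1.72), Fkbp5 (-1.69), Gem (-1.61), Sema6a (-1.45), Coq10b (-1.09), Calml4 (-0.56) and Dcn (-0.46), and positive for Il33 (1.66), Gucy2f (1.41) and Cgnl1 (0.87), all log2. Fkbp5, a chaperone induced by glucocorticoids, averaged 6.52 ± 0.43 in OVX + E and 7.20 ± 0.39 in female controls (SD, n = 5 each).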

How the results depend on the processing

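Among the called genes, and those passing by adjusted p alone other than Atf4, none changed direction under any alternative run. Atf4 and the other named list genes were not followed gene by gene through the alternatives for OVX + E against control. The count of called genes, 3 with the 10 arrays (1 higher, 2 lower), was 23 with all 30 arrays, 15 with the 15 female arrays, 37 with array weights, 24 after quantile normalization (6 higher, 18 lower), 17 without the narrow arrays, 34 with the array SD as a covariate (13 higher, 21 lower), 1 after median centring (Dbp) and 1 in a test against a fold of 1.2. Without the fold limit, the 3 became 34, 21, 106, 54, 49, 161 (78 higher, 83 lower) and 1 in the same settings, up to median centring. Leaving out single arrays gave 1 to 8 called genes and 1 to 12 by adjusted p. The upper ends came without control replicate 5, and Nfil3 and Scx lost their calls (adjusted p up to 0.107) without any of OVX + E replicates 1, 2, 3 and 5 or control replicates 1 to 4. Dbp kept its call throughout.

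The count of 23 with 30 arrays (4 higher, 19 lower; alternatives chosen after seeing the data) was 37 after quantile normalization (12 higher, 25 lower), 34 with the array SD as a covariate (15 higher, 19 lower), 18 without the narrow arrays (5 higher, 13 lower) and ran from 10 to 32 when single arrays were left out, at 10 without control replicate 4 (4 higher, 6 lower), 17 without OVX + E replicate 2 (9 higher, 8 lower) and 14 without OVX + E replicate 5. Of the 23 genes, 14 lost their call under some setting. The 69 differences between responses (10 higher, 59 lower) became 22 after median centring (1 higher, 21 lower), 289 after quantile normalization (80 higher, 209 lower), 507 with the array SD as a covariate (232 higher, 275 lower), 281 without the narrow arrays (77 higher, 204 lower) and 27 to 84 when single arrays were left out, lowest without ORX + T replicate 4. The cause of these moves was not tested.

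A replicate block gave 5 called genes with the 10 arrays (1 higher, 4 lower), by adjusted p alone also 5. With 30 arrays it gave 32 called genes (4 higher, 28 lower) and 96 differences between responses (11 higher, 85 lower). The labels do not say that the numbers pair rats, and they were not taken to. Deviations of same-numbered OVX + E and control arrays correlated at 0.05, -0.67, 0.45, 0.55 and 0.76 for replicates 1 to 5. Of 10 arrays, 2 correlated best with their own number. Replicate 5 was narrow in both groups and replicate 2 in OVX + E only, so these correlations cannot decide on pairing. Every median of all genes under the 3 scalings lay between -0.06 and -0.01. Whether rats of a group were separate litters or cages is not given. The p values set each difference against the spread between single rats, pooled over all groups in the fit used.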
